A study of Homo sapiens with 4 samples.

Results

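Ribosome footprints of HEK293 cells carrying a mutated RPL4 were compared with those of wild type cells, in both cases without erythromycin. The comparison took the 2 untreated libraries of the 4 in the series, 1 a side, and covered every transcript in them. HEK293 is an established human embryonic kidney line. All 4 libraries are Ribo-seq libraries, in which the mRNA pieces shielded by ribosomes are sequenced, and none measured total mRNA, so a difference in mRNA amount and one in translation cannot be told apart. The other 2 libraries were made from the same genotypes under erythromycin, a macrolide antibiotic of unstated dose here, and their values are set beside the untreated ones. The treatment protocol covers stable lines expressing GFP, wild type L4 or a Δloop mutant of L4, infected with lentivirus carrying a short hairpin RNA against RPL4 or a scramble control. Which line and which hairpin each library had is not given in the sources used here, nor whether cycloheximide or lactimidomycin had been used to arrest its ribosomes. With 1 library in each group there is no replicate check, and no p-value is given for any difference.

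RPL4 (uL4) is a protein of the large ribosomal subunit. An extended loop of it reaches into the tunnel through which the growing peptide leaves the ribosome and, with RPL17, lines the narrowest stretch of that tunnel. Peptides that are read or held there can slow the ribosome, and macrolides bind near that stretch in bacterial ribosomes.

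The unit of the files is RPKM, footprint reads scaled by the length of the coding sequence and by the total of the library. A total of 15027 transcripts were listed in at least 1 of the 2 libraries, of which 12738 were in both, 1673 in wild type only and 616 in the mutant only. The wild type library held 2965243 reads and the mutant library 604506, so that wild type was read 4.91 times as deeply. Values below are log2 ratios of RPKM plus 1, mutant over wild type, centred on the median of the 9612 transcripts that averaged 5 RPKM or more across all 4 libraries. The median such transcript had 108 reads in wild type and 23 in the mutant. Brackets hold the exact 95% interval of the ratio of reads, centred alike, which covers counting error only and not the spread between cultures.

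The line's own markers were present in both libraries. Of 13 HEK293 markers 9 passed the minimum, among them vimentin (VIM, 964 RPKM in wild type and 744 in the mutant), SOX4 (478 and 511) and KRT8 (352 and 263). Of 18 markers of other cell types 9 were listed in neither library, among them CD3E of T cells, PECAM1 of endothelium and MYOD1 of muscle. The summed level of the 18 was 18.1 RPKM in wild type and 241 in the mutant, and nearly all of the latter was GFAP, the filament protein of astrocytes. GFAP is described below among the most different transcripts.

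RPL4 itself was lower in the mutant library. It lies on chromosome 15, from 66498015 to 66504883 (GRCh38). It stood at 2515 RPKM (9576 reads) in wild type and 1707 RPKM (1325 reads) in the mutant, which is a log2 ratio of −0.53 [−0.62, −0.45]. Ribosomal proteins of the large subunit other than RPL4 spanned −0.48 to 0.08, so RPL4 lay below all 44 of them that passed the minimum. The interval of RPL4 includes the lowest of these values, and proteins of the small subunit reached −0.52. Under erythromycin RPL4 was at 2586 RPKM in wild type and 1439 in the mutant, and both mutant values lay below both wild type values. Reads of an RPL4 transgene and of the chromosomal gene cannot be told apart here, which makes these levels a partial check of the labels at best.

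Most transcripts differed little. The middle 50% of ratios lay between −0.29 and 0.32. A total of 508 transcripts were at least 2-fold higher in the mutant (5.29%) and 319 at least 2-fold lower (3.32%). Among these the counting interval excluded 0 for 415 of the higher (4.32% of all) and 159 of the lower (1.65%). At 4-fold the numbers were 134 higher and 50 lower, and at 8-fold 41 and 18. The higher transcripts had a median wild type level of 5.92 RPKM, against 24.9 for all 9612, with 220 of the 508 under 5 RPKM and 7 not listed. Of the 319 lower transcripts 22 were not listed in the mutant. Together the 508 took 11.7% of mutant reads and 2.11% of wild type reads, while the 319 took 0.482% and 1.66%.

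**Figure D1:**
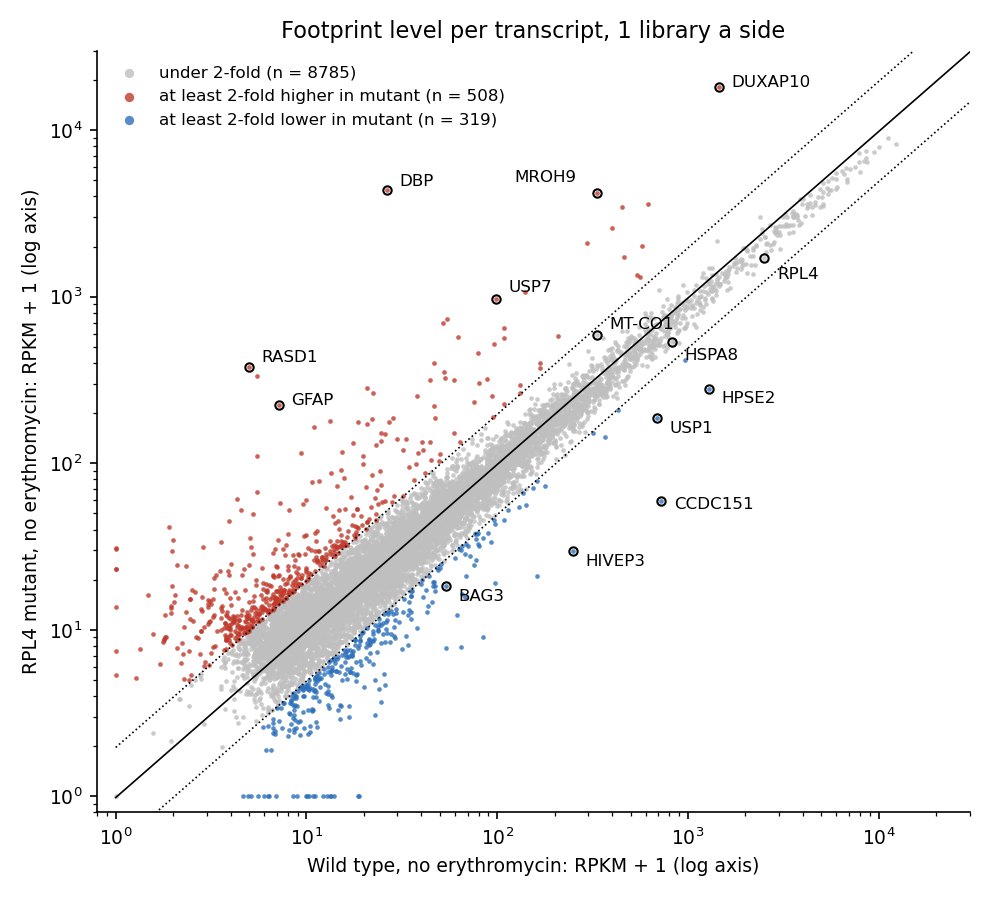
Footprint level of each of the 9612 transcripts in the untreated wild type library (horizontal) and the untreated mutant library (vertical), both as RPKM plus 1 on log axes. The solid line marks the median ratio and the dotted lines 2-fold. Red points are the 508 higher and blue points the 319 lower transcripts, with the transcripts far from the line spread over the whole range of levels on the higher side.

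The 5 most-read transcripts of the mutant were not among the 10 most read in wild type. The 5 with most mutant reads were DUXAP10, MROH9, ACIN1, ZNFX1 and ZNF107, and together they took 5.20% of mutant reads (95% Wilson interval 5.15% to 5.26%) against 0.761% (0.752% to 0.771%) of wild type reads. DUXAP10, a transcribed pseudogene of the DUX homeobox family on chromosome 14 (19298697 to 19337669), was at 1448 RPKM in wild type and 18121 in the mutant (3.67 [3.61, 3.74]). MROH9, a gene of unestablished function whose protein carries HEAT-like repeats, was at 334 and 4216 RPKM (3.68 [3.62, 3.75]). ACIN1, a chromatin and splicing factor of the exon junction complex, was at 400.5 and 2601 RPKM (2.72).

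All of these were also read in wild type, well above the median level. ZNFX1, an RNA-binding helicase of antiviral defence, was at 459 and 1727 RPKM (1.93). The zinc-finger gene ZNF107 was at 616 and 3608 RPKM (2.57). DUXAP10 and ZNF107 belong to families with close copies, so reads may be split among copies and their levels are uncertain. Whether such reads lie at 1 position of a transcript was not analysed here.

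Behind these 5 the mutant order was that of abundant housekeeping genes. EEF1A1, the factor that brings tRNAs to the ribosome, was next (6751 RPKM in wild type and 5910 in the mutant, −0.17), then GAPDH of glycolysis (7475 and 5995, −0.29), the linker histones HIST1H1E (−0.32) and HIST1H1C (−0.09), and RPS4X (−0.14). EEF1A1, GAPDH, HIST1H1E, HIST1H1C and RPS4X were also among the 10 most read in wild type, with ACTB (−0.24), HIST1H3B (−0.56), ENO1 (−0.48), RPS15 (−0.33) and RPL7A (−0.12). All 10 of the most-read wild type transcripts, picked by their wild type reads, had intervals wholly below 0, as had 72.1% of all transcripts at 1000 RPKM and over. The 10 most-read transcripts held 5.75% of reads in wild type (95% Wilson interval 5.73% to 5.78%) and 8.07% in the mutant (8.004% to 8.141%). Counted as a share of summed RPKM, the order turned, with 5.94% in wild type and 5.47% in the mutant.

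The 15 transcripts whose interval lay farthest above 0, among those that averaged 20 RPKM or more over both libraries, included DBP, RASD1 and GFAP. Each of the 15 had more raw reads in the mutant although that library was the smaller, which follows from their choice by the ratio of reads. It was so for 127 of the 9612 transcripts. DBP, a transcription factor under control of the circadian clock (chromosome 19, 48630030 to 48637438), had 74 reads in wild type and 2577 in the mutant. This is 25.5 and 4359 RPKM (log2 ratio 7.39 [7.11, 7.79]). RASD1, a small GTPase induced by glucocorticoids, had 10 and 194 reads (3.99 and 379 RPKM, 6.28 [5.69, 7.68]).

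The erythromycin libraries differed in level for these leading genes. DBP was also high under erythromycin, at 1894.5 RPKM in wild type and 5624 in the mutant, so the untreated wild type library was the low one of 4. RASD1 was at 8.33 RPKM in wild type and 16.7 in the mutant under the drug, so the untreated mutant library was the high one. GFAP was at 6.15 RPKM in untreated wild type and 222 in the untreated mutant (4.99 [4.58, 5.88]), and at 8.02 and 77.2 under erythromycin.

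For DBP, RASD1 and GFAP both mutant libraries were thus above both wild type libraries. The same order held for MROH9 (360 and 2372 RPKM under erythromycin) and for MEIS1, a homeobox factor of development and blood stem cells (53.8 and 736 RPKM untreated, 75.6 and 475 under the drug). It held as well for ST7, a membrane protein encoded on chromosome 7 (19.8 and 283 untreated, 60.5 and 1007 under the drug), and for USP7, the deubiquitinase that stabilises MDM2 (97.5 and 973 untreated, 131 and 2549 under the drug). CLIC2, a chloride channel protein (12.2 and 178 RPKM untreated, 3.78), and MACROD1, a mitochondrial hydrolase of ADP-ribose (21.4 and 262 RPKM, 3.58), followed the same order, with ratios of 3.02 and 2.93 under erythromycin.

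KAT7, a histone acetyltransferase, was at 50.9 RPKM in untreated wild type and 697 in the untreated mutant (3.78), against 68.6 and 89.4 under erythromycin (0.31). CAND2, a regulator of cullin ligases found in muscle, gave 2.91 and 44.1 RPKM untreated and 2.74 and 5.15 under the drug. In both the untreated mutant library stood far above the other 3, with both mutant libraries again above both wild type libraries. ZMYND15, a repressor known from male germ cells, had 6 and 55 reads untreated (0.898 and 40.4 RPKM, 4.47 [4.30, 7.02]) and a ratio of 1.36 under the drug. ITGB2, a beta subunit of leukocyte integrins, was at 8.32 and 114 RPKM untreated and at 93.8 and 136 under the drug. Here untreated wild type was the low library, and both mutant libraries were again above both wild type libraries. DUXAP10 did not follow this order, with 2835.5 RPKM in wild type and 90.6 in the mutant under the drug. The choice of the 15 by their untreated ratio fixes part of the order. Just outside the 15 were IGSF22 (3.29 [3.11, 3.60]) and the beta-defensin DEFB118 (3.94 [3.07, 5.19]).

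**Figure D2:**
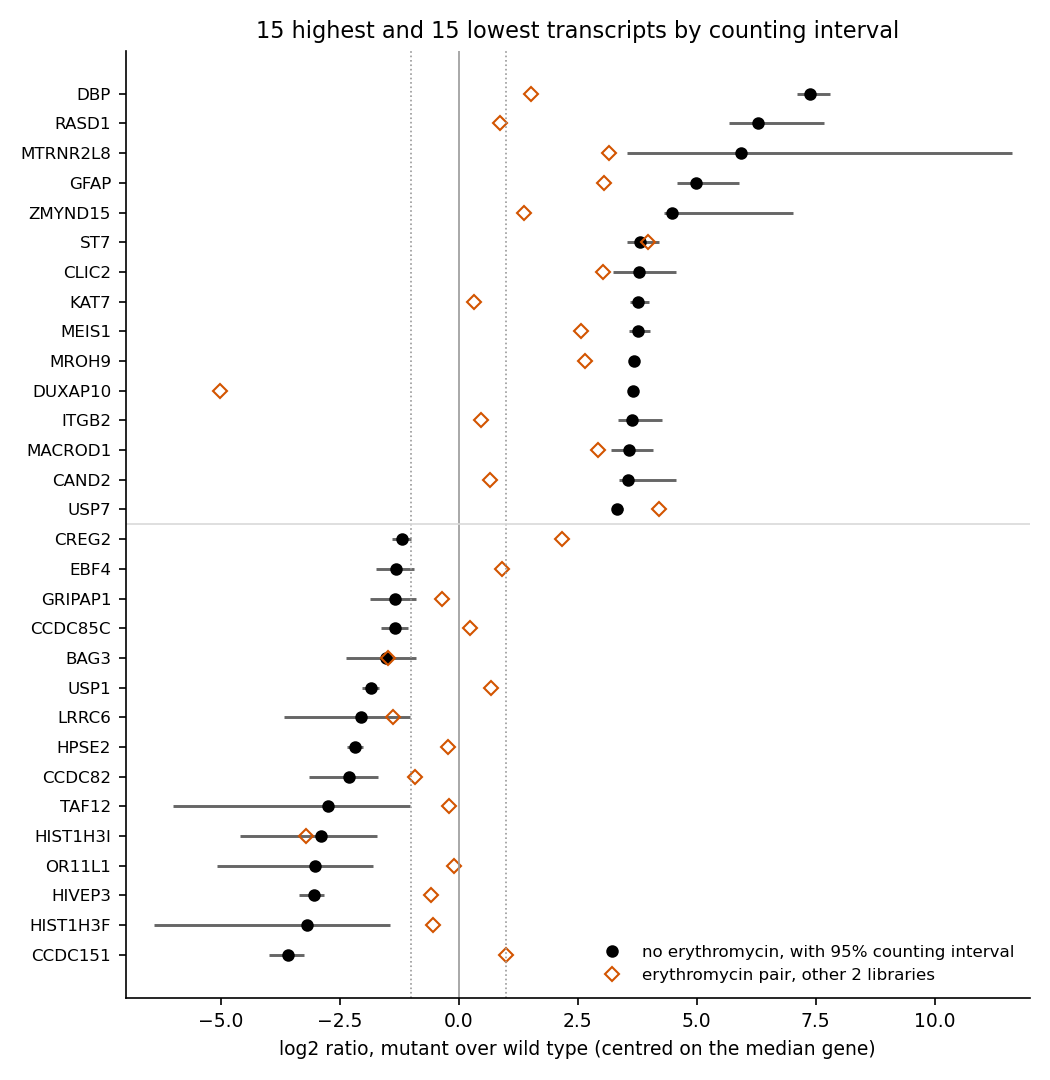
Log2 ratio of mutant over wild type without erythromycin (black dots, with 95% counting intervals) for the 15 transcripts with the highest lower bound and the 15 with the lowest upper bound. Open diamonds give the ratio in the erythromycin pair of libraries, which lies at or above 1 for 10 of the 15 upper transcripts and at or below −1 for 3 of the 15 lower ones.

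The remaining transcript of the 15, MTRNR2L8, is a nuclear copy of the mitochondrial 16S ribosomal RNA gene that holds a short humanin-like reading frame. Its frame of 75 bases had 1 read in wild type and 15 in the mutant (5.94 [3.53, 11.62]). The frames of the 3 copies with most reads are shown because they are close to one another. Each is the coding strand of the GENCODE 29 transcript, with the gene's span in GRCh38. Capitals mark bases that differ from MTRNR2L8.
MTRNR2L8 (chr11:10507887-10509189, minus strand): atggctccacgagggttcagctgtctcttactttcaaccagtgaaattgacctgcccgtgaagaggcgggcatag
MTRNR2L12 (chr3:96617188-96618236, minus strand): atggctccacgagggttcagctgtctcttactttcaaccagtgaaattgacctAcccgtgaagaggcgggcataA
MTRNR2L13 (chr4:116298876-116300320, plus strand): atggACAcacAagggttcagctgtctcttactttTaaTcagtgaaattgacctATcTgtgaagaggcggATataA

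MTRNR2L12 differs from MTRNR2L8 at 2 of the 75 bases and had 1 read in wild type against 5 in the mutant (4.37 [1.48, 10.21]). MTRNR2L13 differs at 12 bases and had 1 and 3 reads. Both MTRNR2L8 and MTRNR2L12 match the mitochondrial 16S gene MT-RNR2 at 97.3% of bases. Reads from one copy, from another or from the mitochondrial rRNA cannot be told apart by gene name alone, so these values are uncertain. MTRNR2L5 and MTRNR2L10 had 0 reads in wild type and 1 in the mutant, below the 3 reads that a count of 0 allows, and no ratio is given for them.

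The 15 transcripts whose interval lay farthest below 0 included CCDC151, HIVEP3 and HPSE2, which were well covered in wild type. CCDC151, needed to dock dynein arms on the axoneme of motile cilia (chromosome 19, 11420604 to 11435104), had 3837 reads in wild type and 63 in the mutant, or 724 and 58.3 RPKM (−3.59 [−3.99, −3.25]). HIVEP3, a zinc-finger transcription factor, was at 248 and 28.6 RPKM (−3.05 [−3.36, −2.84]). HPSE2, a heparanase-related protein that binds heparan sulfate, was at 1290 and 279 RPKM (−2.18 [−2.36, −2.02]).

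These 3 were highest in the untreated wild type library. Under erythromycin CCDC151 was at 40.5 RPKM in wild type and 85.0 in the mutant, HIVEP3 at 74.3 and 51.7, and HPSE2 at 604 and 540. USP1, a deubiquitinase of DNA repair, was likewise highest in untreated wild type. It was at 686 and 186 RPKM untreated (−1.85 [−2.04, −1.68]) and at 187 and 314 under the drug. The untreated wild type library was the highest of the 4 for 11 of the 15 lower transcripts, and for 162 of all 319 lower transcripts. The choice of both sets by their untreated ratio fixes part of this order.

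A total of 3 of the 15 were at or below −1 in both pairs. BAG3, a cochaperone of HSP70 induced by heat shock, was at 52.7 RPKM in untreated wild type and 17.2 in the untreated mutant (−1.53 [−2.36, −0.90]), against 53.2 and 19.2 under the drug (−1.49). LRRC6, another factor for dynein arm assembly, was at 33.0 and 7.08 RPKM (−2.05) untreated and 82.4 and 32.3 (−1.39) under the drug. HIST1H3I, a histone H3 gene, had 195 and 5 reads untreated (−2.90) and a ratio of −3.22 under the drug. HIST1H3F, with 101 and 2 reads untreated (−3.19 [−6.40, −1.45]), gave −0.54. The H3 genes are near-identical in sequence, so the values of HIST1H3I and HIST1H3F are uncertain.

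The remaining transcripts of the 15 had fewer reads or smaller ratios. OR11L1, an olfactory receptor, had 182 and 4 reads (−3.01), CCDC82 466 and 18 (−2.31), and TAF12, a subunit of the general factor TFIID, 76 and 2 (−2.76 [−6.00, −1.03]). CCDC85C (−1.34), EBF4, a transcription factor (−1.31), and GRIPAP1, a protein of recycling endosomes (−1.34), had more reads behind them. CREG2, a secreted glycoprotein, was at 967 and 415 RPKM untreated (−1.19) and at 484 and 2262 under erythromycin (2.16). Just outside the 15 were VCL, the focal adhesion protein vinculin (−1.12 [−1.52, −0.79]), and MCU, the calcium channel of mitochondria (−1.24 [−1.80, −0.75]).

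**Figure D3:**
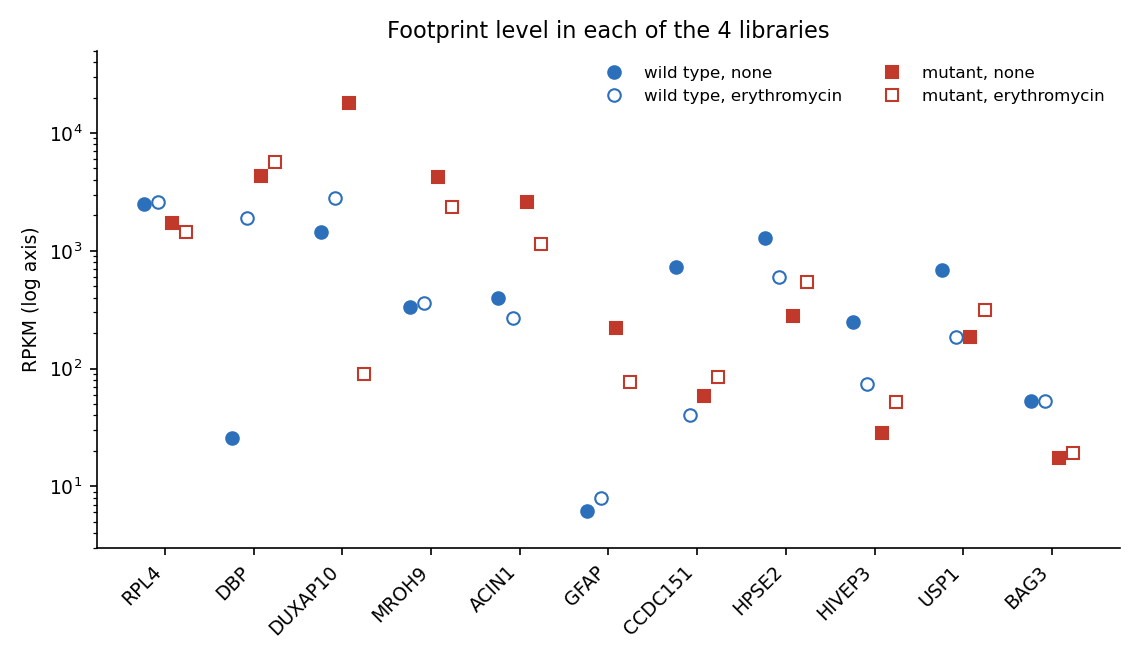
RPKM (log axis) of RPL4, of 5 transcripts that were higher and of 5 that were lower in the untreated mutant, in each of the 4 libraries. Circles are wild type and squares the mutant, filled without and open with erythromycin. For DBP, MROH9, ACIN1 and GFAP both squares lie above both circles. DUXAP10 is high in the untreated mutant and low in the mutant under erythromycin (90.6 RPKM). CCDC151, HIVEP3 and USP1 are high in untreated wild type alone.

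The erythromycin pair shares no library with the untreated pair, but its levels entered the minimum over 4 libraries, it differs in treatment, and it is no replicate. Of the 508 higher transcripts 214 (42.1%) were at least 2-fold higher in that pair as well and 20 at least 2-fold lower, where 7.02% and 2.26% of all transcripts were. Their median ratio there was 0.70, and 395 of 508 were above 0. The 508 were sparser than all transcripts, and these shares are not matched for level. The transcripts under 10 RPKM had a median of 0.31 in the erythromycin pair. Of the 319 lower transcripts 16 (5.02%) were at least 2-fold lower in that pair and 28 (8.78%) at least 2-fold higher. Their median there was 0.06, and 151 of 319 were below 0. With the minimum set on the 2 untreated libraries alone, 39.9% of 542 higher and 5.32% of 282 lower transcripts were called the same way under erythromycin, beside 6.57% and 2.37% of all. Both mutant libraries were above both wild type libraries for 390 of the 508 (76.8%), against 46.3% of all transcripts with an untreated ratio above 0. Both were below for 120 of the 319 (37.6%), against 42.5% of all with an untreated ratio below 0. Over all transcripts the shares were 23.1% and 21.7%, but the choice of the 508 and the 319 fixes part of that order.

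The ratio moved with the footprint level of the transcript. The median was 0.10 among 2042 transcripts under 10 RPKM and −0.22 among 204 transcripts at 1000 RPKM and over. The share at least 2-fold higher was 9.99% under 10 RPKM, between 2.07% and 3.32% from 20 to 1000 RPKM, and 4.41% above that. The share at least 2-fold lower was 7.44% under 10 RPKM and 0% at 1000 RPKM and over. Sparse transcripts rested on a median of 37 reads in wild type and 8 in the mutant, where counting error is wide. Each gene group below is therefore set beside other transcripts in the RPKM range of its median level. Single members can lie in other ranges.

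**Figure D4:**
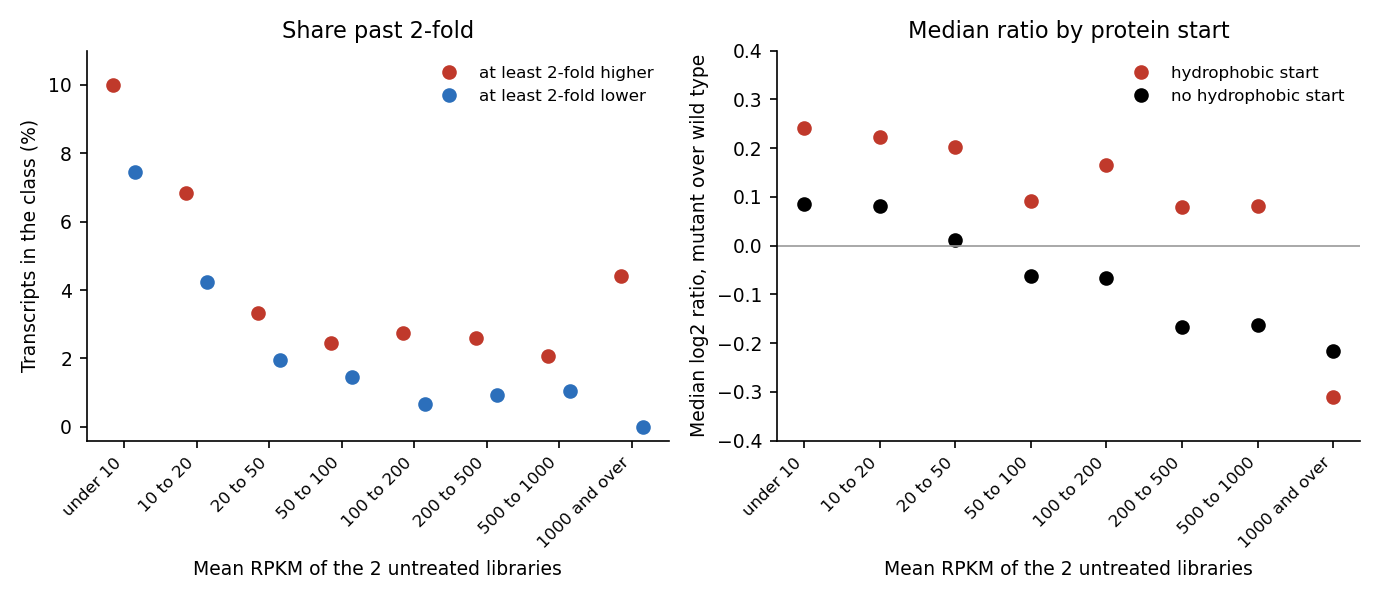
Left, the share of transcripts at least 2-fold higher (red) or lower (blue) in the untreated mutant, in %, by mean RPKM of the 2 untreated libraries. Right, the median log2 ratio of transcripts whose protein starts with a hydrophobic stretch (red) and of the others (black). The red points lie above the black ones in 7 of the 8 levels, and both move down with the level.

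Genes of the translation machinery were mostly below the median transcript, as were other abundant genes. A total of 32 gene groups had at least 5 members above the minimum. Their median was below 0 in 27 groups (22 to 29 under the alternative settings), and 18 of the 32 lay within 0.10 of other transcripts of the same level. Large-subunit ribosomal proteins other than RPL4 had a median of −0.22, equal to the −0.22 of the other transcripts at 1000 RPKM and over. The counting interval lay wholly below 0 for 36 of these 44, where it did for 9.28% of all transcripts and for 69.1% of the others at that level. RPL36 (8614 and 7527 RPKM, −0.17), RPL38 (8588 and 6796, −0.31) and RPL37A (8345 and 6564, −0.32) were the highest in level.

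Proteins that share the exit tunnel or its port with RPL4 were at the same level. The 8 measured had a median of −0.22 and spanned −0.33 to 0.00. RPL35 at the exit port was at 7913 and 6421 RPKM (−0.28), RPL39, which lines the lower tunnel, at 5428 and 4973 (−0.10), and RPL19 at 5339 and 4495 (−0.22). Small-subunit proteins were slightly lower, with a median of −0.30 over 33 against −0.20 for others of their level, and 31 of 33 intervals lay below 0, as did 67.8% of those others. RPS19, whose loss causes Diamond-Blackfan anaemia, was at 6858 and 4906 RPKM (−0.46), RPS15 at 9494 and 7439 (−0.33), and RPS4X at 6410 and 5706 (−0.14). The large-subunit proteins took 7.70% (95% Wilson interval 7.67% to 7.73%) of wild type and 6.53% (6.471% to 6.596%) of mutant reads. The small-subunit proteins took 6.01% (5.98% to 6.04%) and 4.82% (4.77% to 4.88%).

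Elongation factors and aminoacyl-tRNA synthetases had medians below those of other transcripts at each group's median level. The 16 elongation and termination factors had a median of −0.27 against −0.05 for others at 50 to 100 RPKM. The 3 highest in level lie at 1000 RPKM and over, where the median was −0.22. These were EEF1A1 (−0.17), EEF2, which moves the ribosome along the mRNA (1479 and 1184 RPKM, −0.29), and EEF1B2 (1352 and 937, −0.50). Among the 16 factors GSPT2, a release factor paralogue, had 18 and 12 reads (1.48 [0.55, 2.87]), and DOHH, an enzyme that modifies eIF5A, 111 and 9 reads (−1.25 [−2.47, −0.33]). The 22 aminoacyl-tRNA synthetases, which charge tRNAs, had a median of −0.26 against −0.05, with FARSA at −0.25, TARS at −0.23 and HARS at −0.27. Of the 22, 19 were below 0, and 9 intervals lay wholly below 0, where 9.67% of others of the level did.

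Ribosome biogenesis factors (66, median −0.16 against −0.05) and initiation factors (38, −0.13 against −0.05) were nearer to other transcripts. Of their most abundant members, NPM1 of the nucleolus was at −0.13, FBL, a nucleolar methyltransferase, at 0.04, EIF4A1 at −0.22 and EIF1 at −0.07. Factors for stalled ribosomes (22) had a median of −0.02 against 0.03, a sign that turned with no filter and with scaling to the sum of RPKM without the 20 most-read transcripts of each library. Among them EDF1, a sensor of collided ribosomes, was at 1193 and 1388 RPKM (0.24 [0.08, 0.41]) and RACK1, a scaffold on the small subunit, at 3531 and 2703 (−0.36 [−0.44, −0.28]). The nascent-chain factors (10), which meet the peptide at the tunnel exit, had a median of −0.18 against −0.05, with BTF3 at −0.27.

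**Figure D5:**
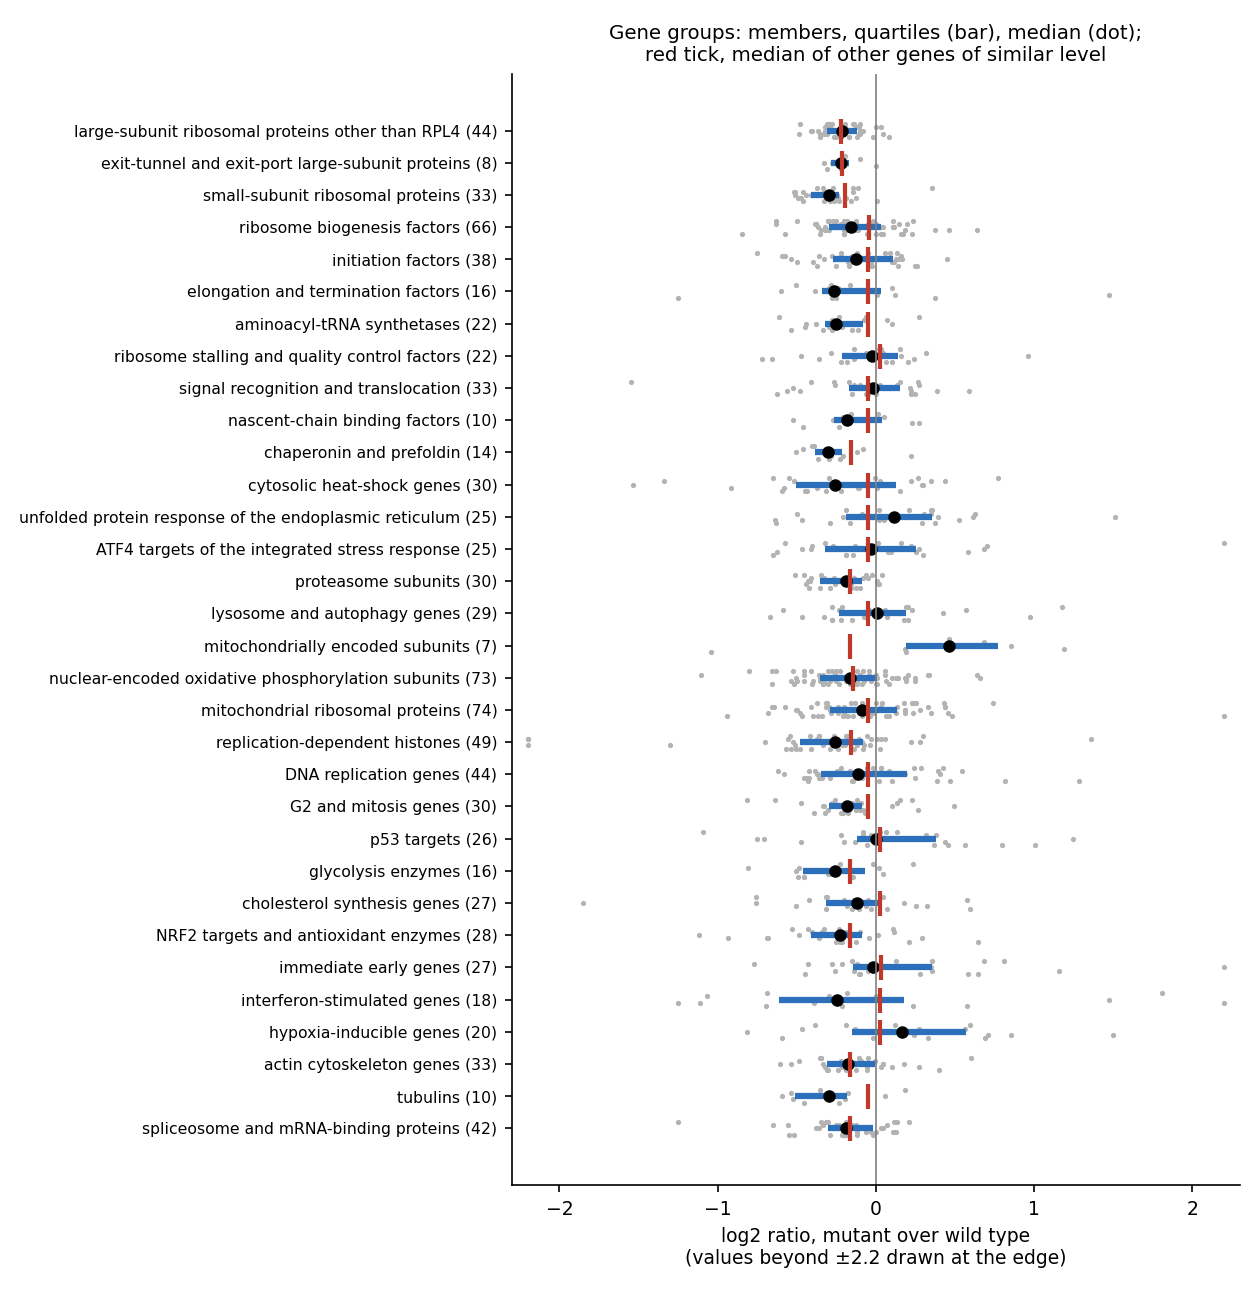
Log2 ratio of mutant over wild type without erythromycin for the members of 32 gene groups (grey dots, number measured in brackets), with the quartiles (blue bar) and median (black dot) of each group. Red ticks mark the median of other transcripts in the RPKM range of the group's median level. The mitochondrially encoded subunits lie farthest above their tick, and the interferon-stimulated genes, tubulins and elongation factors farthest below.

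The median of cytosolic heat-shock genes was below that of other transcripts at the group's median level. The 30 heat-shock genes had a median of −0.26 against −0.05 for others of their level, with 19 below 0. Intervals lay wholly below 0 for 13 and wholly above for 4, where this was so for 14.2% and 7.67% of others of the level. That level is 100 to 200 RPKM. The share below 0 was 38.9% at 500 to 1000 RPKM and 72.1% at 1000 RPKM and over. Members named here reach into those ranges, so the count of 13 is not matched for level. UBB, the member highest in level, was at 1408 and 1376 RPKM (−0.01 [−0.14, 0.12]). HSPA8, the constitutive HSP70, was at 825 and 536 RPKM (−0.60 [−0.72, −0.48]), HSP90AB1 at 759 and 509 (−0.55), and DNAJA1, a J-domain partner of HSP70, at 236 and 162 (−0.52). Others in the group went the opposite way, with the HSP90 cochaperone PTGES3 at 884 and 1013 RPKM (0.22 [0.04, 0.40]) and SERPINH1, the collagen chaperone HSP47, at 71.9 and 96.1 (0.44 [0.05, 0.82]). HSP90AB1, DNAJA1 and SERPINH1 were chosen after their values were seen.

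Chaperonin and prefoldin subunits, which fold actin and tubulin, had a median of −0.31 over 14 against −0.16, with CCT7 at −0.37 and CCT3 at −0.28. The tubulins themselves were at −0.30 over 10 against −0.05, with TUBB at 2578 and 1846 RPKM (−0.46) and TUBA1B at 667 and 433 (−0.60). The −0.05 is for 100 to 200 RPKM, and at 1000 RPKM and over, where TUBB lies, the median was −0.22. Tubulin genes share long stretches of sequence, so the split among them is uncertain. Under erythromycin the medians were −0.67 for heat-shock genes (−0.16 for others of the level), −0.55 for chaperonin and prefoldin (−0.17) and −0.47 for tubulins (−0.16).

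Heat-shock genes are switched on by HSF1 through inverted repeats of the unit GAA. The 250 bases upstream of the start site were searched on both strands for 3 units (GAANNTTCNNGAA or TTCNNGAANNTTC), which 4 of 25 matched heat-shock genes held and 0.439% of 27305 RefSeq promoters. A total of 3 are shown because such a match occurs at ratios on both sides of 0, from −0.60 for HSPA8 and −0.48 for CHORDC1, an HSP90 partner, to 0.44 for SERPINH1. Capitals mark the matches, and each runs 5′ to 3′ along the gene (RefSeq, GRCh38.p14).
HSPA8 (chr11:123062137-123062386, minus strand): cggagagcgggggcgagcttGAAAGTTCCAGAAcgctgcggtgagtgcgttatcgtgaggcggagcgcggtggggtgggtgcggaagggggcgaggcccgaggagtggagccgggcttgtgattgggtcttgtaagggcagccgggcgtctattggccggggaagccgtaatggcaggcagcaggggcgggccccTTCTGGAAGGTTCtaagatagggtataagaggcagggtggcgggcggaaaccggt
CHORDC1 (chr11:90223050-90223299, minus strand): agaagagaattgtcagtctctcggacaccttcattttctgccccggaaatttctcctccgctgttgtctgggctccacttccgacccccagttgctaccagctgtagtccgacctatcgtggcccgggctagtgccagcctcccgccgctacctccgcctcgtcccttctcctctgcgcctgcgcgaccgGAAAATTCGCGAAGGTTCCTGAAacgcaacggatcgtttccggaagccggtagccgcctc
SERPINH1 (chr11:75562003-75562252, plus strand): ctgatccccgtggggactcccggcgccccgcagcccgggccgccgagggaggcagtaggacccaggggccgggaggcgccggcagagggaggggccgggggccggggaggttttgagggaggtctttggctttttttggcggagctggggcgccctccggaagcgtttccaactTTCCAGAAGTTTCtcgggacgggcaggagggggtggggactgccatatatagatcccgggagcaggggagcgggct

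With the looser search for 2 units (GAANNTTC or TTCNNGAA), 8 of the 25 heat-shock promoters and 11.7% of all promoters held a match. The 8 genes had a median ratio of −0.28 and the others −0.32. A match describes the letters only.

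Genes of the unfolded protein response, which adjusts folding in the endoplasmic reticulum, had a median of 0.11 over 25 against −0.05 for others of their level. That median was 0.037 under TMM scaling, 0.062 with wild type reads thinned to the mutant total and 0.23 with at least 20 reads expected in the mutant. Intervals lay wholly above 0 for 8 of 25, where this was so for 9.53% of all transcripts and 7.79% of others of the level, and wholly below for 1. CALR, a calcium-binding chaperone, was at 480 and 620 RPKM (0.39 [0.24, 0.54]), P4HB, a disulfide isomerase, at 307 and 387 (0.36 [0.18, 0.53]), and PDIA6 of the same family at 146 and 207 (0.53 [0.29, 0.77]). HSPA5, the HSP70 of that compartment, was at 131 and 159 RPKM (0.31 [0.07, 0.54]), and CANX, the membrane-bound relative of CALR, at 248 and 218 (−0.16 [−0.37, 0.04]). DNAJB9 had 11 and 7 reads (1.51 [0.06, 3.17]). Under erythromycin the group's median was −0.08, against −0.14 for others of the level, with CALR at −0.35. PDIA6, HSPA5 and CANX were chosen after their values were seen.

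Transcripts whose proteins begin with a hydrophobic stretch, as secretory signal sequences do, lay higher than the rest. A start was counted as hydrophobic where 12 residues in a row within the first 35 had a mean Kyte-Doolittle hydropathy of at least 2. The 1137 such transcripts had a median of 0.19 and the 8407 others −0.02. At least 2-fold higher were 9.15% of the first and 4.76% of the second, and 104 of the 508 higher transcripts (20.5%) had such a start against 11.8% of all. At least 2-fold lower were 3.78% and 3.22%.

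The coding starts of 4 transcripts show such stretches on both sides of 0, and capitals mark the codons of the most hydrophobic 12 residues. CALR and ITGB2 were higher in the mutant, ST7 is a membrane protein with the stretch farther in, and HPSE2 was lower. Each is the first 105 coding bases of the GENCODE 29 transcript, with the gene's span in GRCh38.
CALR (chr19:12938607-12944489, plus strand): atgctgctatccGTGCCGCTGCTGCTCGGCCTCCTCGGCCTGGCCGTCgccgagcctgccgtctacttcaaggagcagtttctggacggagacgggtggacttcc
ITGB2 (chr21:44885953-44928873, minus strand): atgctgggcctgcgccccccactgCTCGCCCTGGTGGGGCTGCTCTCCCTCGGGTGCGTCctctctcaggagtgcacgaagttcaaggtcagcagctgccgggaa
ST7 (chr7:116953327-117223907, plus strand): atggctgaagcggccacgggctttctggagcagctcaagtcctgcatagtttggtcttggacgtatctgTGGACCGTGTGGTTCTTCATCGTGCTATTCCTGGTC
HPSE2 (chr10:98459118-99235862, minus strand): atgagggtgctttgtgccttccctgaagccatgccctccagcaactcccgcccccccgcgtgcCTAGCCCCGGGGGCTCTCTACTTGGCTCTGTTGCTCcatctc

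The difference between hydrophobic and other starts was seen at most levels. From 20 to 50 RPKM the median was 0.20 with such a start and 0.01 without, and from 200 to 500 RPKM 0.08 and −0.17. At 1000 RPKM and over, where 7 transcripts had such a start, it was −0.31 and −0.22. In the erythromycin pair the medians were 0.12 with and −0.02 without. Among the 15 named higher and the 15 named lower transcripts, 2 of each had such a start, close to the 11.8% of all.

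Other properties of the coding sequence also went with the ratio. The longest 20% of coding sequences had a median of 0.12 and the shortest 20% −0.10, and the most GC-rich 20% were at 0.10. The longest were also sparser, with a median level of 12.1 RPKM against 84.5 for the shortest. Proteins with 3 or more prolines in a row, a motif on which ribosomes slow, had a median of 0.07 against −0.03 without, and those with 4 or more lysines or arginines in a row 0.05 against −0.02. Transcripts with such runs were also longer, with a median coding length of 1872 bases for the prolines against 1179 without, so the 2 properties move together.

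The signal recognition and translocation genes (33), which bring such proteins to the membrane, had a median of −0.02 against −0.05, and this sign turned with a stricter minimum and under one of the scalings. SRP9 (1308 and 1198 RPKM, −0.10) and SRP14 (1073 and 1091, 0.05) of the signal recognition particle and SEC61G of the channel (1069 and 1007, −0.06) lay near 0. MMGT1, a subunit of the membrane insertase EMC, had 90 and 6 reads (−1.55 [−3.07, −0.41]).

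Subunits encoded in mitochondrial DNA, which mitochondrial ribosomes translate, were the group farthest above others of its level, with a median of 0.47 over 7 against −0.16. MT-CO1 of cytochrome c oxidase was at 331 and 588 RPKM (0.85 [0.71, 1.00]), MT-CO2 of the same enzyme at 314 and 426 (0.47 [0.22, 0.71]), and MT-ND5 of complex I at 130.5 and 293 (1.19 [1.00, 1.39]). MT-ND6, on the strand opposite MT-ND5, was at 357 and 564 (0.69), and the files do not separate strands. MT-ATP6 and MT-ATP8 of ATP synthase were at 0.19 each, with intervals that included 0. MT-ND4L was the exception at 316 and 150 RPKM (−1.04 [−1.67, −0.47]). The 7 took 0.144% (95% Wilson interval 0.140% to 0.149%) of wild type and 0.229% (0.218% to 0.242%) of mutant reads. The median and the share cover these 7 of 13 listed genes, and the other mitochondrially encoded proteins are not analysed here. Under erythromycin the median of the 7 was 1.38 against −0.17 for others of the level, with all 7 above 0. A change in the number of mitochondrial transcripts and one in their translation cannot be told apart.

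Nuclear genes for the same complexes (73) had a median of −0.17 against −0.14, with COX7C at 3248 and 2714 RPKM (−0.23) and NDUFA13 at 113 and 51.1 (−1.11 [−2.03, −0.33]). Mitochondrial ribosomal proteins (74) had a median of −0.09 against −0.05, and the sign turned under scaling to the sum of RPKM without the 20 most-read transcripts of each library. MRPL35, a large-subunit protein of that ribosome, was at 294 RPKM (495 reads) in wild type and 2115 RPKM (725 reads) in the mutant (2.87 [2.70, 3.04]). Under erythromycin its ratio was 2.26. MRPL41 (−0.50) and MRPS21 (0.48) were the next in level.

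Stress programmes other than those of the chaperones showed single members far from 0. Medians were near 0 for ATF4 targets, p53 targets and immediate early genes, and farther from it for hypoxia-inducible and interferon-stimulated genes. The 25 ATF4 targets, the genes of the integrated stress response, had a median of −0.03 against −0.05, with a sign that turned under 3 alternatives. PHGDH (−0.13), MTHFD2 (0.27 [0.04, 0.50]) and PSAT1 (−0.14) of serine and one-carbon metabolism were the highest in level. NUPR1, a stress-induced chromatin protein, had 3 and 11 reads (3.84 [2.27, 6.68]), and 3 and 0 reads under erythromycin. The p53 targets (26) had a median of 0.00 against 0.03, of either sign under the alternatives, with RPS27L at 422 and 246 RPKM (−0.75 [−1.23, −0.31]), RRM2B at 16.9 and 40.7 (1.24) and GADD45B at 31.1 and 62.3 (1.00 [0.20, 1.80]).

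Hypoxia-inducible genes (20) had a median of 0.17 against 0.03, with ANKRD37 at 471 and 535 RPKM (0.21), NDRG1 at 40.1 and 58.6 (0.56) and LOX, a collagen cross-linking enzyme, at 10 and 7 reads (1.50 [0.18, 3.35]). Of the 20, 12 were above 0. The median was 0.018 with at least 20 reads expected in the mutant, 0.026 with wild type reads thinned and 0.047 with a minimum of 20 RPKM. The immediate early genes (27) had a median of −0.02 against 0.03, above 0 under 2 alternatives, with EGR1 (31 and 15 reads, 1.16) and EGR2 (9 and 12 reads, 2.28) above 2-fold.

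Interferon-stimulated genes (18 of 33 passed the minimum) had a median of −0.25 against 0.03 with members far apart, and −0.13 with no filter to −0.45 with wild type reads thinned. SAMD9, a translational repressor of antiviral defence, was at 14.4 and 116 RPKM (204 and 335 reads, 2.95 [2.78, 3.29]) and at 2.24 under erythromycin. IFITM3 (12 and 9 reads, 1.81) and BST2 (35 and 20 reads, 1.47) were also higher, while IFI6 (97 and 8 reads, −1.25 [−2.53, −0.24]) was lower.

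Growth and housekeeping groups lay a little below other transcripts of their level. Replication-dependent histones (49) had a median of −0.26 against −0.15, with HIST1H3B at 12365 and 8267 RPKM (−0.56), HIST1H4C at 11238 and 9024 (−0.29) and HIST1H4J at 537 and 1357 (1.36 [1.14, 1.58]), whose near-identical H4 copies make the last value uncertain. Glycolysis enzymes (16) had −0.26 against −0.16, with ENO1 at 3837 and 2694 RPKM (−0.48). Genes of G2 and mitosis (30) had −0.18 against −0.05, with BIRC5, the apoptosis inhibitor survivin, at 779 and 492 RPKM (−0.64 [−0.90, −0.39]). DNA replication genes (44) had −0.11 against −0.05, with TYMS at −0.34 and CDT1, the licensing factor, at 168 and 401 RPKM (1.28 [1.11, 1.46]).

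Proteasome subunits (30) had a median of −0.19 against −0.16, with PSMB3 at −0.41 and PSMB1 at −0.27. Spliceosome and mRNA-binding proteins (42) had −0.19 against −0.16, with SNRPD2 at −0.38 and U2AF1 at 98 and 8 reads (−1.25 [−2.55, −0.26]). Actin cytoskeleton genes (33) had −0.18 against −0.16, with PFN1 at −0.19 and TMSB4X at −0.06. NRF2 targets (28) had −0.23 against −0.16, with TXN at −0.10 and NQO1 at 58.9 and 26.1 RPKM (−1.12 [−2.09, −0.33]). All of these medians were within 0.10 of other transcripts of the level. Cholesterol synthesis genes (27) had −0.12 against 0.03, with FDPS at −0.05 and TM7SF2 at 64 and 3 reads (−1.85 [−4.41, −0.48]). Lysosome and autophagy genes (29) were at 0.00 against −0.05, of either sign under the alternatives, with GABARAP at −0.07 and TPP1, a lysosomal protease, at 37 and 18 reads (1.18 [0.38, 2.13]).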

How the data were processed

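The RPKM values were made and deposited by the authors, 1 file a library, with transcripts at 0 not listed; an absent transcript was read as 0. Per the submitters' processing notes, cutadapt, STAR and GRCh38 were used, without roles or versions. Neither the read counter nor the annotation release is given in the sources used here. Of 16292 transcripts in any library, 16172 matched GENCODE release 29. Library totals were taken as the smallest that made RPKM times coding length whole reads (within 0.001) for nearly all matched transcripts. With them at least 99.15% of matched transcripts in each library were whole. A further 243 coding lengths were derived from the RPKM themselves.

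Ratios are log2(RPKM + 1), mutant minus wild type, centred on the median of transcripts that averaged 5 RPKM or more across the 4 libraries. The added 1 RPKM understates ratios of low transcripts. Intervals are exact (Clopper-Pearson) on reads, shares have Wilson intervals, and both cover counting error only. With 1 library a side no test was run; a transcript is called at 2-fold. The steps were tested on simulated data. Named are RPL4, 15 transcripts a side by counting interval (average of 20 RPKM or more), the 10 most-read of each library, and, in each of 34 gene lists, the 3 highest in level and members at least 2-fold apart with an interval excluding 0; not all are printed. Members and lists were chosen with earlier results of these data known. "Others of the level" are transcripts outside the list in the same of 8 ranges of RPKM as its median. Alternatives were 11 pseudocounts, filters and scalings. Python 3.11.15, numpy 2.4.6, pandas 2.3.3, scipy 1.17.1 and matplotlib 3.10.9 were used.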

Additional observations from a re-analysis of the deposited data

Results flagged for a closer look

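For 6 of the named transcripts the mutant was at least 2-fold higher in one pair of libraries and at least 2-fold lower in the other, with both counting intervals on their own side of 0. The difference between the pairs was not tested, since each group has 1 library. DUXAP10 had a log2 ratio of 3.67 without and −5.01 with erythromycin. ZNFX1 had 1.93 and −3.09, and GADD45B, a growth-arrest gene, 1.00 and −1.64. The opposite order was seen for CREG2 (−1.19 and 2.16), MT-ND4L (−1.04 and 1.12) and TM7SF2, a sterol reductase (−1.85 and 1.59).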

How the results depend on the processing

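The RPL4 ratio stayed within its counting interval under 10 of 11 alternatives and was −0.42 when scaled to the sum of RPKM without the 20 most-read transcripts of each library, a scaling that put the median transcript at 0.11. The numbers at least 2-fold higher and lower were 270 and 139 with a pseudocount of 5 RPKM, 1120 and 740 with a minimum of 1 RPKM, 179 and 75 with one of 20 RPKM, 1552 and 918 with no filter, and 154 and 42 with at least 20 reads expected in the mutant. The higher share of these calls, 61.4% as reported, was 71.0% under the scaling above and 54.2% with TMM, and 78.6% with at least 20 reads expected. The share of the higher transcripts also at least 2-fold higher under erythromycin was 31.3%, 55.3%, 25.5% and 59.1% with a minimum of 1 RPKM, of 20 RPKM, no filter and at least 20 reads expected, and 33.1% with wild type reads thinned. The like share of the lower ones was 9.73% with a minimum of 1 RPKM, 9.26% with no filter and 2.72% under the scaling above. As a share of summed RPKM the 10 most-read transcripts held 5.94% in wild type and 5.47% in the mutant. Between 22 and 29 of 32 lists had a median below 0. Of 352 list medians under alternatives, 252 stayed within the list's counting error, and the mitochondrial ribosomal proteins changed sign beyond it, to 0.026. The causes were not tested. No paired analysis was possible because each group has 1 library. Depth limits the comparison most in the mutant, where the median transcript had 23 reads.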
